A study of Mus musculus with 8 samples.

Results

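C-type lectin and TREM receptors are sensors on the surface of myeloid cells, and 9 of them were examined together with the adaptor Card9 in bone marrow neutrophils. The 10 genes (Clec4a2, Clec4d, Clec4e, Clec4n, Clec5a, Clec7a, Clec12a, Trem1, Trem3 and Card9) were chosen by their symbols among the 24421 genes of the count table, and all 10 passed the filter on low counts. The choice was made with earlier results of these data known, so their counts beside all genes are a description and no independent test. RNA was sequenced from neutrophils of 8-week-old C57BL/6 mice that were wild type (WT) or Padi4-/- (KO, with exon 1 of Padi4 deleted), after magnetic isolation from bone marrow. Cells of each genotype were left unstimulated or given R848, a TLR7 agonist, at 1 µg/ml for 6 h, which made 4 groups of 2 libraries. The titles of the unstimulated libraries carry 0 h whereas the culture protocol has 6 h for both conditions, and this was not resolved, so the R848 responses may include the effect of 6 h in culture. Whether the duplicates came from separate mice is not stated, and the p-values therefore measure only the spread between these libraries, which may be technical. No Cre line or cell type restricts the deletion in the sources used here, so the KO neutrophils also matured in KO bone marrow.

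These receptors couple the recognition of microbes and damaged cells to phagocyte activation. Activating members such as Mincle (Clec4e), MCL (Clec4d) and Dectin-2 (Clec4n) signal through the adaptor FcRγ (Fcer1g), whereas MDL-1 (Clec5a) and the TREM receptors use DAP12 (Tyrobp), and Dectin-1 (Clec7a), a receptor for fungal β-glucan, carries its own tyrosine motif. All of these recruit the kinase Syk, and Card9 then joins Bcl10 and Malt1 to turn on NF-κB. DCIR1 (Clec4a2) and MICL (Clec12a) carry inhibitory motifs that recruit phosphatases such as SHP-1 (Ptpn6).

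In the GENCODE annotation of GRCm38, the build of mm10, the genes lie on 3 chromosomes. Clec4a2 (chr6:123106428-123143999, plus strand), Clec4n (chr6:123229843-123247021, plus), Clec4d (chr6:123262111-123275265, plus) and Clec4e (chr6:123281789-123289870, minus) lie in 1 cluster, with Clec4b2 between Clec4a2 and Clec4n, and 6523 bases separate Clec4d from Clec4e. Clec12a (chr6:129342691-129365303, plus), Clec7a (chr6:129461591-129472779, minus) and Clec5a (chr6:40574894-40585821, minus) are elsewhere on the same chromosome. Trem1 (chr17:48232768-48246924, plus) is 852 bases from Trem3 (chr17:48247777-48258841, plus), and Card9 (chr2:26352176-26360918, minus) stands alone. Clec4a2, Trem1 and Card9 each overlap another annotated gene (Gm44132, AC241601.2 and Gm13562), and 6.83% of the 50-base words of Clec4a2 exons also occur in other genes, so their counts are less certain. For the other 7 genes the shared words made up at most 0.686%.

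Promoters of RefSeq genes on GRCm38.p6 were available for 8 of the 10 genes. The 250 bases before the RefSeq start are shown for the neighbours Clec4d and Clec4e and for Trem1, which rose after R848, and for Clec12a, which fell. The RefSeq starts of Clec12a and Clec4a2 lie inside the GENCODE spans given above, so their windows do too. Capitals mark GAGGAA or its reverse complement, the core of sites of PU.1, a transcription factor of myeloid cells.
Clec4d (chr6:123261857-123262106, plus): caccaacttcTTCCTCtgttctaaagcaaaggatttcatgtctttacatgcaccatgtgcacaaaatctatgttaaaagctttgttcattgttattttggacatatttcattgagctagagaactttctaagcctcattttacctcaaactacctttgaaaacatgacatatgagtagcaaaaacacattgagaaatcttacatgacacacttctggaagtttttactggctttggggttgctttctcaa
Clec4e (chr6:123289872-123290121, minus): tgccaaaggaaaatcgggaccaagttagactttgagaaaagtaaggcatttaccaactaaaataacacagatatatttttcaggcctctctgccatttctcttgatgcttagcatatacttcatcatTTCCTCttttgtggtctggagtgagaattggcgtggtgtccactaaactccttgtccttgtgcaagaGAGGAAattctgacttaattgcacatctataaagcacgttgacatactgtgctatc
Trem1 (chr17:48232489-48232738, plus): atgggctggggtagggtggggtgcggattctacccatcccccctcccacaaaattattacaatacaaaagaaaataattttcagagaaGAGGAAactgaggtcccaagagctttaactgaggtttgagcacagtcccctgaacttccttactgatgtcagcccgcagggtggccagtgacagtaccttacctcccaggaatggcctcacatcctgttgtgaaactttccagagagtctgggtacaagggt
Clec12a (chr6:129349994-129350243, plus): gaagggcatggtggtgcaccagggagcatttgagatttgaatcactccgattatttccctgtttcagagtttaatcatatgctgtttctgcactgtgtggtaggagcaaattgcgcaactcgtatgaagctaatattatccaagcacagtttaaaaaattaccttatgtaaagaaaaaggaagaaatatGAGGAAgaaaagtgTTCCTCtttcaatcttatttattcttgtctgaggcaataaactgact
GAGGAA occurred in 6 of the 8 promoters (Clec4d, Clec4e, Clec5a, Clec7a, Clec12a and Trem1), beside 23.3% of all 32851 promoters in the same window. It was thus present both in genes that rose and in Clec12a, which fell. Of the other 5 motifs searched on both strands, the C/EBP pattern TTNNGNAA was found in 7 members and 36.8% of all promoters. Its narrower form TTGCNNAA was found in Clec4e and Clec12a, at places that TTNNGNAA also matched, and in 9.56% of all. The STAT pattern TTCNNNGAA was found in Clec4a2 and Trem1 (7.02% of all) and the AP-1 pattern TGANTCA in Clec12a (6.75% of all). No member had a match to the κB consensus, which 7.25% of all promoters had. A match describes the letters in this window and is not evidence of binding.

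Between 562446 and 668857 counts per library fell on genes in WT and between 716440 and 1177972 in KO neutrophils. Levels are CPM, counts per 1000000 counts of a library size scaled with TMM factors, and 3 counts, the smallest level taken as detected, equalled 2.55 to 5.33 CPM of the library total, which covers counting error only. The 12254 genes with at least 1 count in at least 2 libraries were fitted in 1 model of 4 group means. Changes are log2 fold changes with standard errors (SE), and every adjusted p marked edgeR comes from its quasi-likelihood test, adjusted after Benjamini and Hochberg over those genes. The spread between duplicates was small (biological coefficient of variation 4.68%), and the WT libraries after R848 differed most from each other. Padi4 itself had 590 and 527 counts in unstimulated WT against 40 and 54 in unstimulated KO libraries, and 166 and 234 against 34 and 21 after R848.

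**Figure D1:**
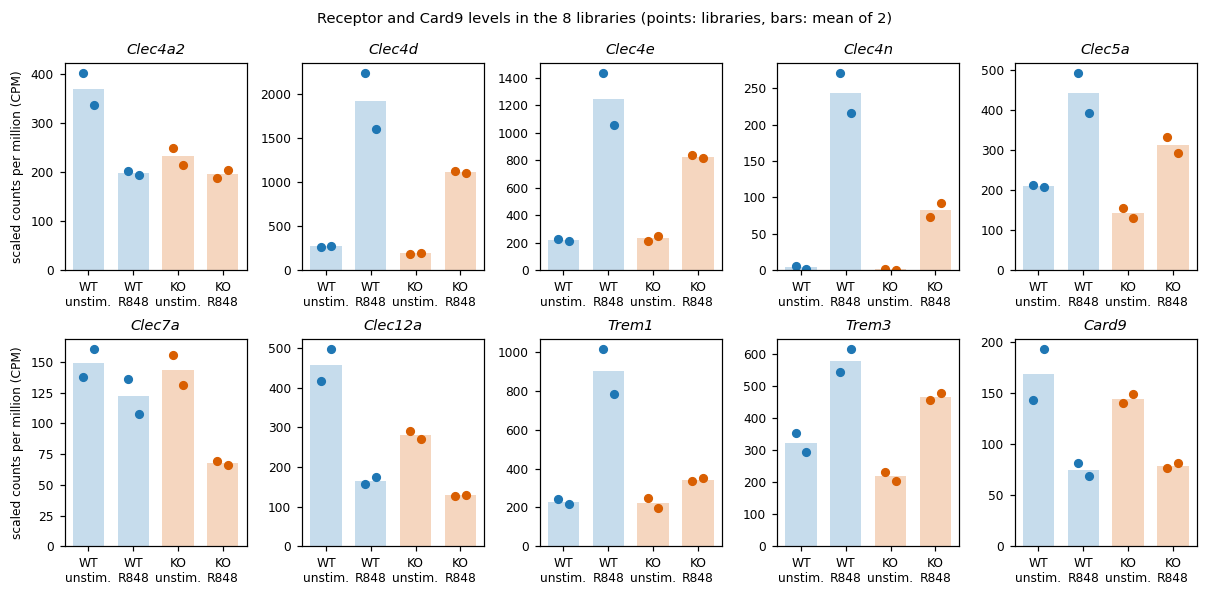
Scaled counts (CPM) of each of the 10 genes in every library, with points for single libraries and bars for the mean of 2, by genotype and treatment. Clec4d, Clec4e, Clec4n and Trem1 rise most after R848 in WT, where Clec4d reaches 2238 and 1599 CPM, and stimulated Trem1 is lower in KO (335 and 349 CPM) than in WT (1015 and 786 CPM).

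After R848, the activating receptors Clec4d, Clec4e, Clec4n and Clec5a rose in both genotypes, and Trem1 rose past the threshold in WT and Trem3 in KO. Clec7a fell past it in KO and Card9 in WT. Of the inhibitory receptors, Clec12a fell in both genotypes and Clec4a2 passed the threshold in neither. A response was called where the false discovery rate was under 0.1 and the change over 2-fold. In WT, 5 members were called higher, beside 7.17% of all genes tested, and 2 lower (Clec12a and Card9), beside 10.8% of all. In KO, 5 members were called higher (background 8.07%) and 2 lower (Clec7a and Clec12a, background 8.84%). The median log2 fold change of the members was 0.95 in WT and 0.87 in KO, beside -0.17 and -0.03 for all genes tested. In both genotypes the libraries with and without R848 did not overlap for any member, with 6 members above and 4 below. Of all genes tested, 23.2% lay above without overlap and 31.3% below in WT, and 29.5% above and 31.7% below in KO. Where counts were scaled by library size alone, the calls became 4 higher and 3 lower in WT and 3 and 3 in KO, because members near a 2-fold change crossed it, while the median of genes with at least 10 counts moved by -0.30 and -0.38. Scaling left the direction of all 20 member responses as it was.

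Clec4d, the partner of Mincle, was the most abundant member after R848. It stood at 269 and 275 CPM in unstimulated WT and 183 and 197 CPM in unstimulated KO libraries, and after R848 at 2238 and 1599 CPM in WT and 1124 and 1097 CPM in KO. All 4 stimulated libraries lay above all 4 unstimulated ones, and WT above KO in each condition. The response was 2.81 in WT (SE 0.10, edgeR adjusted p = 9.09e-181) and 2.54 in KO (SE 0.09, edgeR adjusted p = 1.96e-163), which is 7.03-fold and 5.80-fold. Clec4e, the receptor for mycobacterial cord factor, started at similar levels in both genotypes, with 224 and 212 CPM in WT and 215 and 252 CPM in KO. It reached 1437 and 1055 CPM in WT and 839.6 and 816 CPM in KO, so that the stimulated genotypes did not overlap. It rose 5.67-fold in WT (edgeR adjusted p = 2.37e-124) and 3.51-fold in KO (log2 1.81, SE 0.09, edgeR adjusted p = 1.90e-86).

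Clec4n, a receptor for fungal mannan, went from the edge of detection to clear expression. The unstimulated libraries held 4 and 1 counts in WT and 2 and 0 in KO, and the stimulated ones 133 and 122 counts in WT and 82 and 101 in KO. The stimulated level was 271 and 216 CPM in WT and 72.9 and 92.8 CPM in KO. The ratio of stimulated to unstimulated was 59.2 in WT (95% exact interval 25.1 to 184) and 93.5 in KO (25.5 to 778), with wide limits because only 5 and 2 unstimulated counts lie beneath them. These intervals pool the 2 libraries of a group and cover counting error only, not the spread between libraries.

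Clec5a, which pairs with DAP12 and DAP10, rose by a smaller factor. From 213 and 207 CPM it reached 493 and 393 CPM in WT, and from 156 and 131 CPM it reached 332 and 293 CPM in KO. The response was 1.07 in WT (SE 0.12, edgeR adjusted p = 2.05e-16) and 1.14 in KO (SE 0.11, edgeR adjusted p = 6.48e-23), both close to the 2-fold limit and under it when scaled by library size alone (0.76 and 0.77). Clec7a (Dectin-1) stood at 138 and 161 CPM in unstimulated WT and 137 and 108 CPM after R848, a difference that did not pass (log2 -0.29, SE 0.18, edgeR adjusted p = 0.246). In KO it went from 156 and 131 CPM to 69.3 and 66.2 CPM, a fall by 1.06 on the log2 scale (SE 0.15, edgeR adjusted p = 2.89e-11). Without the first unstimulated KO library the value was -0.96, under the fold limit.

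Both TREM receptors were expressed before stimulation. Trem1, which amplifies the inflammatory signal of Toll-like receptors, stood at 243 and 218 CPM in unstimulated WT and 249 and 199.6 CPM in unstimulated KO libraries. After R848 it reached 1015 and 786 CPM in WT but 335 and 349 CPM in KO. The response was 1.96 in WT (SE 0.11, edgeR adjusted p = 2.70e-70), 3.89-fold, and 0.63 in KO (SE 0.10, edgeR adjusted p = 7.54e-09), 1.55-fold and thus short of the fold limit. Its neighbour Trem3, another DAP12-coupled activating receptor of mice, went from 352 and 294 CPM to 542 and 614 CPM in WT and from 233 and 204 CPM to 455 and 477 CPM in KO. Its log2 fold change was 0.84 in WT (SE 0.11) and 1.11 in KO (SE 0.10, edgeR adjusted p = 1.11e-27). Either call for Trem3 moved across the 2-fold limit with 1 library: without the first WT library after R848 the WT response was 1.05, and without either WT library after R848 the KO response was 0.98.

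Of the inhibitory receptors, Clec12a fell in both genotypes and Clec4a2 was called in neither. Clec12a, a receptor for uric acid crystals, went from 416 and 497 CPM to 157 and 174 CPM in WT and from 292 and 269.9 CPM to 128 and 129.6 CPM in KO. It fell by 1.46 in WT (SE 0.13, edgeR adjusted p = 3.80e-27) and by 1.12 in KO (SE 0.12, edgeR adjusted p = 1.88e-20) on the log2 scale. Clec4a2 went from 402 and 337 CPM to 202 and 195 CPM in WT, a log2 fold change of -0.90 (SE 0.13, edgeR adjusted p = 7.96e-11) that is under the fold limit, and that passed it without the second unstimulated WT library (-1.02). In KO it stood at 249 and 215 CPM before and 188 and 205 CPM after R848, and this difference did not pass (log2 -0.22, SE 0.11, edgeR adjusted p = 0.124). The adaptor Card9 went from 144 and 193 CPM to 81.5 and 69.1 CPM in WT and from 140.2 and 149 CPM to 76.4 and 81.8 CPM in KO. It fell 2.23-fold in WT (edgeR adjusted p = 1.92e-08) and had a log2 fold change of -0.88 in KO (SE 0.14, edgeR adjusted p = 1.50e-08), on the other side of the fold limit. Leaving out the second library of either WT group put the WT value at -0.94 and -0.93.

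**Figure D2:**
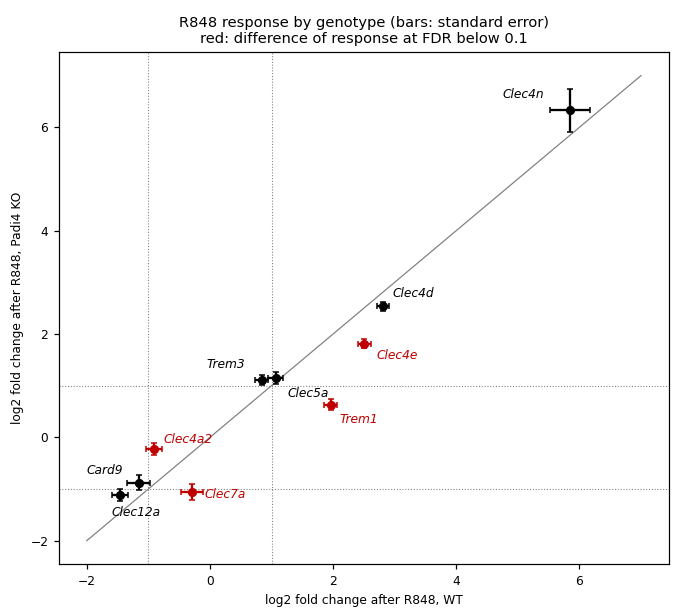
Log2 fold change after R848 in WT (x axis) and KO (y axis) for each gene, with standard errors as bars, the diagonal of equal response as a line, the 2-fold limits dotted, and in red the genes whose responses differed at a false discovery rate below 0.1. Trem1 (1.96 and 0.63), Clec4e (1.81 in KO) and Clec7a (-0.29 and -1.06) lie below the diagonal and Clec4a2 (-0.90 and -0.22) above it.

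The question of whether the loss of Padi4 changed the R848 response was tested as the log2 fold change in KO minus that in WT. It passed at a false discovery rate below 0.1 for 1 member higher (Clec4a2), beside 3.45% of all genes tested, and for 3 lower (Trem1, Clec4e and Clec7a), beside 1.26% of all. The median of the members was 0.17, beside 0.19 over all genes tested. Trem1 had the largest difference among the 4, -1.33 (SE 0.15, edgeR adjusted p = 3.06e-15), and ranked 11 by p among the 12254 genes. Clec4e differed by -0.69 (SE 0.14, edgeR adjusted p = 2.30e-04), Clec7a by -0.77 (SE 0.23, edgeR adjusted p = 0.0373) and Clec4a2 by 0.68 (SE 0.17, edgeR adjusted p = 0.00599). Relative to the median of genes with at least 10 counts, these values were -1.51 for Trem1, -0.87 for Clec4e, -0.95 for Clec7a and 0.50 for Clec4a2.

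The call for Trem1 held in each of the 14 alternatives (-1.73 to -1.19), and that for Clec4e did too (-1.14 to -0.56), with its largest value without the second WT library after R848. With DESeq2 neither Clec7a (-0.94, adjusted p = 0.129) nor Clec4a2 (0.51, adjusted p = 0.381) passed. Clec4a2 also lost its call without the first unstimulated WT library, the second unstimulated KO library or either WT library after R848 (adjusted p 0.127 to 0.315), and its value was 0.45 without the first and 0.43 without the second of these WT libraries. Clec7a lost its call without the first unstimulated WT, the first unstimulated KO or the second stimulated KO library (adjusted p 0.126 to 0.208), and rose to -1.17 in size without the second WT library after R848.

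For the other 6 members the difference did not pass. Values were -0.28 for Clec4d (SE 0.14), 0.08 for Clec5a (SE 0.17), 0.34 for Clec12a (SE 0.18), 0.27 for Trem3 (SE 0.15) and 0.28 for Card9 (SE 0.25), and that of Clec4n (0.49, SE 0.88) rests on its 5 and 2 unstimulated counts. Clec4d passed without the second WT library after R848 (-0.74) and with relative log expression factors (-0.43). Clec5a changed sign with these factors (-0.08). Without the first WT library after R848, the value was 0.014 for Clec12a and -0.073 for Trem3.

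Before stimulation, 5 members were lower in KO than in WT (Clec4a2, Clec4d, Clec5a, Clec12a and Trem3), beside 14.4% of all genes tested, and 0 were higher, beside 9.55%. With edgeR 0 members were higher also at an unadjusted p under 0.05, and DESeq2 called 0 higher. In bulk RNA, fewer cells of a type and less RNA per cell cannot be told apart. Clec12a differed by -0.70 (SE 0.10, edgeR adjusted p = 6.79e-10), Clec4a2 by -0.69 (SE 0.11, edgeR adjusted p = 1.67e-08) and Trem3 by -0.58 (SE 0.11, edgeR adjusted p = 6.71e-06). Clec5a differed by -0.57 (SE 0.13) and Clec4d by -0.51 (SE 0.12, edgeR adjusted p = 2.22e-04). For these 5 the KO libraries lay below WT without overlap, beside 30.1% of all genes tested (25.3% lay above), whereas Clec4e, Clec4n, Clec7a, Trem1 and Card9 overlapped. The values of Clec4e (0.11, SE 0.12), Trem1 (-0.06, SE 0.12), Clec7a (-0.07, SE 0.15) and Card9 (-0.20, SE 0.14) did not pass, although Clec4e passed without either WT library after R848 (0.26). No fold is given for Clec4n, whose counts were at most 4 per library. Library size alone moved the median of genes with at least 10 counts by 0.29, left 3 members lower and 1 higher (Clec4e, 0.40), and turned Trem1, Clec7a and Card9 positive. Relative to that median in the TMM fit, the 5 called members lay between -0.54 (Clec12a) and -0.34 (Clec4d).

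**Figure D3:**
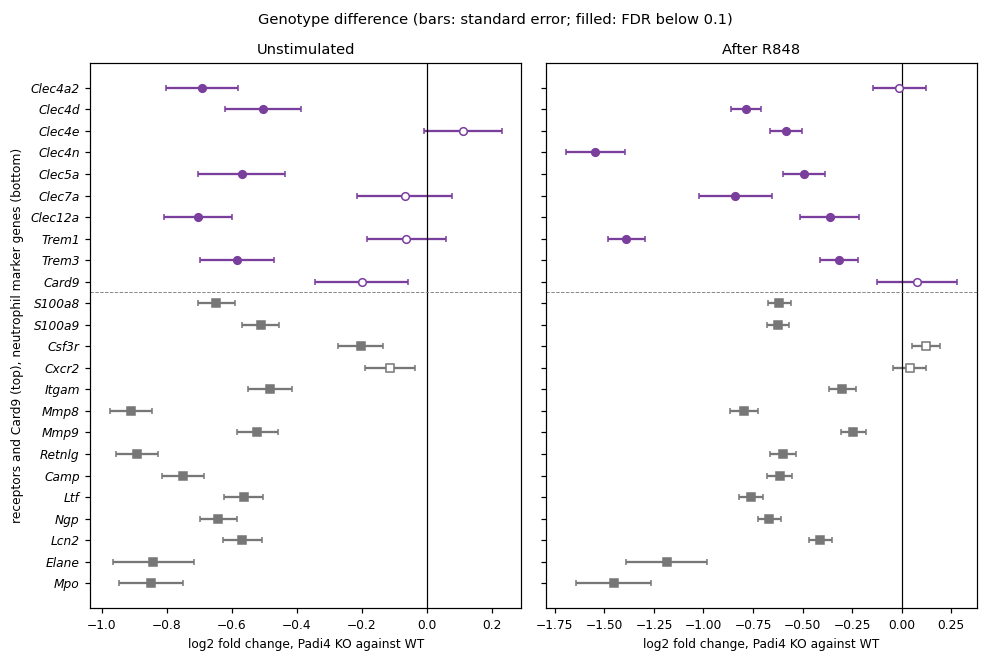
Log2 fold change of KO against WT without stimulation (left) and after R848 (right), with standard errors as bars and filled symbols for a false discovery rate below 0.1, for the receptors and Card9 (circles) and for neutrophil marker genes (squares). Unstimulated Clec4n is left out because its counts are near 0. After R848, Clec4n (-1.55) and Trem1 (-1.39) lie lowest among the receptors, and most marker genes are also below 0.

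After R848, 8 members were lower in KO than in WT, beside 7.81% of all genes tested, and 0 were higher, beside 9.46% (0 with edgeR at an unadjusted p under 0.05 and 0 with DESeq2). The KO libraries of these 8 lay below WT without overlap, beside 19.8% of all genes tested (30.3% lay above), while those of Clec4a2 and Card9 overlapped with WT. Clec4n differed most, by -1.55 (SE 0.15, edgeR adjusted p = 9.89e-23), and Trem1 by -1.39 (SE 0.09, edgeR adjusted p = 2.88e-47), so that Trem1 was 2.62-fold higher in WT. Clec7a differed by -0.84 (SE 0.18, edgeR adjusted p = 1.21e-04), Clec4d by -0.78 (SE 0.08, edgeR adjusted p = 9.88e-23), Clec4e by -0.58 (SE 0.08, edgeR adjusted p = 3.89e-11) and Clec5a by -0.49 (SE 0.11, edgeR adjusted p = 7.02e-05). The smallest called values were those of Clec12a (-0.36, SE 0.15, edgeR adjusted p = 0.0899) and Trem3 (-0.32, SE 0.10, edgeR adjusted p = 0.0105). Neither passed with library size alone (-0.15 and -0.10), and Clec12a also failed with DESeq2 and without either unstimulated KO library, the second WT library after R848 or either KO library after R848 (adjusted p 0.105 to 0.268). Trem3 failed without the first KO library after R848 (-0.28). Clec4a2 (-0.01, SE 0.13) and Card9 (0.08, SE 0.20) did not pass, and their signs changed with the scaling, to 0.20 for Clec4a2 with library size alone and to -0.02 for Card9 with relative log expression factors.

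Marker genes moved with genotype beside these results. The 14 neutrophil markers in the table (Ly6g was not analysed here) had a sum of 164105 to 169839.5 in unstimulated WT and 133795 to 135322 in KO, as CPM scaled by library size alone, and 13 of the 14 were lower in KO. After R848 the sums were 154341 to 166907 CPM in WT and 125464 to 126152 CPM in KO, with 12 of 14 lower. Their median log2 fold change was -0.60 without stimulation, from -0.91 (Mmp8) to -0.11 (Cxcr2), and -0.62 after R848, from -1.45 (Mpo) to 0.12 (Csf3r). The members' median was -0.54 in both conditions, and after R848 Clec4n was the 1 member that lay below the lowest of the markers. Monocyte markers summed to 2092 to 2094 CPM in unstimulated WT and 3330.4 to 3361 CPM in KO, and to 3422 to 3549 and 3771 to 3824 CPM after R848. In KO, 8 of 14 were higher and 1 lower without stimulation, and 6 higher and 1 lower (Adgre1, -0.44, SE 0.07) after R848. The stimulated sums come mainly from Adgre1 and Csf1r, which R848 raised by 5.96 and 2.72 in WT and by 5.63 and 2.62 in KO. They are thus no measure of monocyte content. Erythroid markers summed to 121 to 158 CPM in unstimulated WT and 1403 to 1482 CPM in KO, and to 31.4 to 65.6 and 1598 to 1639.98 CPM after R848, with 11 and 12 of 12 higher in KO. Of all genes tested, 14.4% were lower and 9.55% higher in KO without stimulation, and 7.81% and 9.46% after R848. Dendritic cell markers summed to 37.3 to 78.7 CPM over all libraries, lymphocyte markers to 6.79 to 28.1 CPM, with Cd3e, Ebf1 and Klrb1c at 0 throughout, and eosinophil, basophil and mast cell markers to 28.2 to 119 CPM. The part of these cells, and of the greater depth of the KO libraries, in the receptor differences was not tested.

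Levels were compared between genes per kilobase of exon, on the scale of CPM per kilobase. In unstimulated WT, Trem3 was highest (355 and 295), followed by Clec4d (168 and 172) and Clec4a2 (137 and 115). Clec12a, Trem1 and Card9 came next with overlapping neighbours, then Clec7a and Clec5a, which also overlapped, Clec4e (45.2 and 42.8) and Clec4n. Unstimulated KO began with the same 3 genes in the same order, of which Clec4a2 overlapped with Trem1, the next. After R848, Clec4d was highest in WT, with 1400 and 999.9, ahead of Trem3 (545 and 618), Trem1 (339 and 262) and Clec4e (289 and 213), of which the last pair overlapped. Stimulated KO had Clec4d (703 and 686), Trem3 (458 and 479.9), Clec4e (169 and 164) and Trem1 (112 and 117) without overlap, so that Clec4e stood above Trem1 there. Clec12a was lowest in both stimulated groups, overlapping with Card9 in WT. The sum over the 10 genes was 1036 and 988 in unstimulated WT and 775 and 717 in unstimulated KO, and 3077 and 2516 against 1726 and 1743 after R848.

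**Figure D4:**
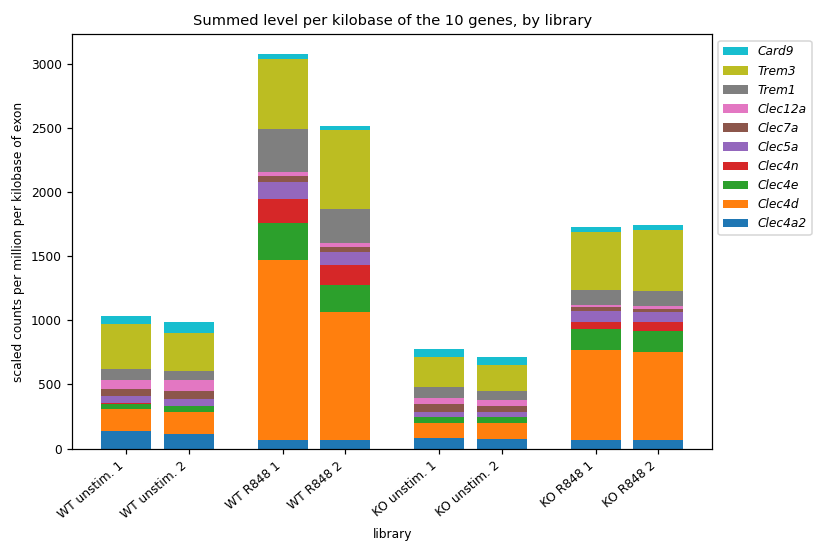
Stacked levels of the 10 genes in CPM per kilobase of exon, 1 bar for each library. Clec4d makes up between 39.4% and 45.5% of the sum after R848 and between 14.8% and 17.4% before, and the bars of stimulated WT (3077 and 2516) stand above those of stimulated KO (1726 and 1743).

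Downstream of the receptors, a list of 25 adaptors, kinases and phosphatases had 24 genes tested. In WT 8 rose and 1 fell (Hcst, the adaptor DAP10), and in KO 11 rose and 0 fell (with edgeR 1, Hcst, at an unadjusted p under 0.05, and 0 with DESeq2), with medians of 0.75 and 1.01 over the list beside -0.17 and -0.03 over all genes. Of all genes tested, 7.17% rose and 10.8% fell in WT, and 8.07% and 8.84% in KO. The FcRγ chain gene Fcer1g stood at 714 and 634 CPM in unstimulated WT and 1722 and 1880.3 CPM after R848, and at 460.2 and 462 CPM and 1688 and 1589 CPM in KO. Its response was 1.42 in WT (SE 0.08) and 1.83 in KO (SE 0.08), a difference of 0.41 (SE 0.11, edgeR adjusted p = 0.0171). Syk, the kinase that the activating receptors share, went from 745 and 689 CPM to 1268 and 1349 CPM in WT and from 537 and 498 CPM to 1309.6 and 1280.2 CPM in KO. Its responses of 0.87 in WT, under the fold limit, and 1.33 in KO differed by 0.46 (SE 0.12, edgeR adjusted p = 0.00546). The difference was 0.52 for Prkcd (SE 0.12, edgeR adjusted p = 0.00178), the kinase that phosphorylates Card9, and 0.75 for Ikbkg (SE 0.24, edgeR adjusted p = 0.0483), the regulatory subunit of the IκB kinase complex. These were the 4 genes of the list that passed, each with a larger response in KO (3.45% of all genes tested did so), and relative to the median of genes with at least 10 counts their differences were 0.23 for Fcer1g, 0.28 for Syk, 0.34 for Prkcd and 0.57 for Ikbkg. In KO against WT, 15 of the list were lower without stimulation, beside 14.4% of all genes tested, and 7 after R848, beside 7.81%. None was higher in KO in either condition, at an unadjusted p under 0.05 with edgeR or with DESeq2. After R848 Syk (-0.02, SE 0.08) and Fcer1g (-0.14, SE 0.07) were not among the 7. With DESeq2, 0 genes of this list passed in the difference of response.

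Among genes of the list whose response did not differ by genotype past the threshold, Ptpn6, the phosphatase SHP-1 recruited by inhibitory receptors, rose by 1.58 in WT (SE 0.08) and 1.54 in KO (SE 0.08) while the inhibitory receptor Clec12a fell. Tyrobp, the DAP12 adaptor of the TREM receptors and Clec5a, was named after its values were seen. It stood at 1172 and 1165 CPM in unstimulated WT and 1492 and 1586 CPM after R848, and at 850.2 and 848.3 CPM and 1323 and 1248 CPM in KO. Its response of 0.40 in WT (SE 0.08) and 0.60 in KO (SE 0.07) was under the fold limit, and the difference of 0.20 (SE 0.11) did not pass.

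**Figure D5:**
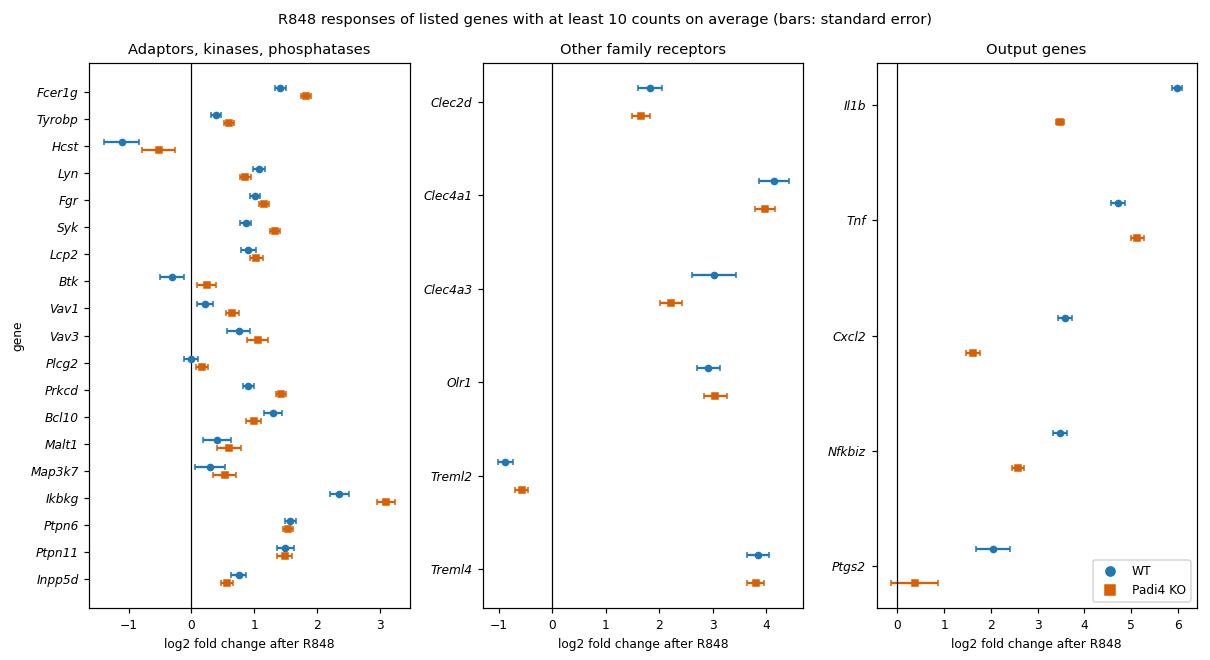
Log2 fold change after R848 in WT (circles) and KO (squares), with standard errors as bars, for adaptors, kinases and phosphatases, other receptors of the families, and output genes with at least 10 counts on average. Genes with 0 counts in all unstimulated libraries, and 1 gene not reported here, are left out. Il1b (5.99 and 3.48) and Cxcl2 (3.58 and 1.61) show the widest gaps between genotypes.

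Of 27 other receptors of the families, 20 were tested, and 5 rose in each genotype, beside 7.17% of all genes tested in WT and 8.07% in KO. Another 3 were called lower in each, beside 10.8% and 8.84% of all, and these had at most 3.88 counts per library on average. They were Clec1b and Treml1 in both genotypes, Mgl2 in WT and Trem2 in KO, named after their values were seen. The median was -1.13 in WT and -1.19 in KO, and 2.97 and 2.64 over the 6 genes with at least 10 counts. Clec4a1, in the same cluster as Clec4a2, had 8 and 6 counts in unstimulated WT and 109 and 107 after R848, and 10 and 22 against 275 and 223 in KO. It rose by 4.15 in WT (SE 0.27) and 3.98 in KO (SE 0.19). Clec4a3, beside it, rose by 3.02 (SE 0.41) and 2.22 (SE 0.21) and was higher in KO both without stimulation (1.51, SE 0.47) and after R848 (0.71, SE 0.20). Along this stretch of chromosome 6, these 2 genes, Clec4a4 (3.88 counts per library on average, not in the list of 27), Clec4n, Clec4d and Clec4e rose in both genotypes. Clec4a2, Clec4b1 and Clec4b2, which lie between them, were called higher in neither, the last 2 with 0.375 and 3.25 counts per library on average. Treml4, next to Trem3, rose by 3.84 in WT (SE 0.21) and 3.80 in KO (SE 0.16), and Treml2 had log2 fold changes of -0.89 (SE 0.14) and -0.57 (SE 0.12), under the fold limit. Olr1, the receptor for oxidised low-density lipoprotein, rose by 2.91 (SE 0.22) and 3.05 (SE 0.22) and was lower in KO after R848 (-0.91, SE 0.14). The difference of response passed for 0 of the 20 with edgeR, for 0 at an unadjusted p under 0.05 and for 0 with DESeq2.

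Of ligands, Pglyrp1, a ligand of Trem1, had 1458 and 1343 CPM in unstimulated WT and 1127 and 1246 CPM after R848, and 998 and 939.7 CPM before and 1160.3 and 1162 CPM after in KO. The difference of response was 0.50 (SE 0.11, edgeR adjusted p = 5.21e-04), opposite in sign to that of its receptor. The median of genes with at least 10 counts was 0.18 in this difference. Pglyrp1 was lower in unstimulated KO (-0.54, SE 0.08) and did not pass after R848 (-0.03, SE 0.08). A relation to Trem1 was not tested. Hmgb1, a nuclear protein that can act as a danger signal, was higher in unstimulated KO (0.56, SE 0.13), and its difference of response did not pass (-0.29, SE 0.20).

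Genes that these receptors and TLR7 can both induce were followed as outputs. Of 13 listed, 10 were tested, and 9 rose in WT and 7 in KO, with 0 falling by edgeR, by its unadjusted p under 0.05 or by DESeq2. Of all genes tested, 7.17% were called higher in WT and 8.07% in KO, and 10.8% and 8.84% lower. Over the 7 with at least 10 counts the median was 4.72 in WT and 3.48 in KO, or 3.58 and 2.97 with genes that had no unstimulated count set at their lower bound. Il1b had 54 and 47 counts in unstimulated WT and 2790 and 2723 after R848, and 253 and 351 against 3551 and 3106 in KO. Its response was 5.99 in WT (SE 0.11) and 3.48 in KO (SE 0.08), a difference of -2.51 (SE 0.15, edgeR adjusted p = 4.02e-57). It was higher in KO before stimulation (1.70, SE 0.14) and lower after R848 (-0.80, SE 0.07). Cxcl2, a neutrophil chemoattractant, had 31 and 38 counts before and 397 and 313 after R848 in WT, and 60 and 68 against 207 and 178 in KO. Its responses of 3.58 and 1.61 differed by -1.97 (SE 0.24, edgeR adjusted p = 1.92e-13). Nfkbiz, the third output gene that passed here, differed by -0.90 (SE 0.23, edgeR adjusted p = 0.00611) and was named after its values were seen. The response of Tnf was 4.72 (SE 0.15) and 5.14 (SE 0.15), and the difference of 0.42 (SE 0.31) did not pass. Il10 and Il12b had 0 counts in all 4 unstimulated libraries. Il10 was at least 32.8-fold higher after R848 in WT and at least 29.5-fold in KO, and Il12b at least 7.52-fold and 7.86-fold, each against 3 counts per library. After R848, 8 of the output genes were lower in KO, beside 7.81% of all genes tested, and 0 higher, beside 9.46%, also at an unadjusted p under 0.05 with edgeR and with DESeq2.

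As a description over the 8 libraries, the members that rose followed each other closely on the log2 CPM scale. Pearson's r was 0.99 between Clec4d and Clec4e and 0.83 between the neighbours Trem1 and Trem3, while Clec4a2 and Clec12a had 0.89. These points share treatment groups and libraries. Among 2918 other genes with at least 50 counts, the closest to Clec4d were Lcp1 and Nampt, Alas1 was among the closest to Clec4e, and those to Trem3 were Rnf111 and H2-D1, with r from 0.99 to 1.00. As 439, 336 and 238 genes had r over 0.95 with them, the order among these is not informative.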

How the data were processed

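The authors removed adaptors with cutadapt 1.16 after FastQC 0.11.7, dropped low-quality reads, mapped the rest to mm10 with STAR 2.5.3a and counted them on genes with HTSeq 0.6.1p1. The deposited values are raw counts per gene symbol for 8 libraries, without normalization. The annotation and strand setting of the counting are not given in the sources used here. The summary lines of HTSeq, 10.6% to 13.0% of the table's counts, were left out. Groups came from the sample labels.

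Genes with at least 1 count in at least 2 libraries were tested with edgeR 4.0.16 (R 4.3.3, limma 3.58.1), by the robust quasi-likelihood fit with TMM factors and 4 group means. P-values received the Benjamini-Hochberg adjustment, and each standard error was taken as |log2 fold change| over the square root of F. With 2 libraries per group no exact test of a single gene can pass, so p-values rest on spread shared across genes. DESeq2 1.42.0, other filters, scalings, thresholds, separate fits, a block and leaving out each library were alternatives. The members and gene lists were chosen with earlier results of these data known. Beyond the members, up to 6 genes per list were named, by at least 10 counts on average and the smallest p in the difference of response (up to 2) or the largest called response (up to 4), and for the 3 most abundant members the 2 genes closest in Pearson's r. A few genes that this rule picks are not reported here. Gene positions are from GENCODE M21, promoters from RefSeq.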

Additional observations from a re-analysis of the deposited data

Results flagged for a closer look

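The genes given here are those named whose R848 response differed between the genotypes, by a test of the difference itself with edgeR's quasi-likelihood fit. As some were named for a small p in this test, how many there are is not a result. The log2 fold change in KO minus that in WT was below 0 for Trem1 (-1.33), Clec4e (-0.69) and Clec7a (-0.77) among the receptors and for Il1b (-2.51), Cxcl2 (-1.97) and Nfkbiz (-0.90) among the output genes. It was also below 0 for Alas1 (-0.53). It was above 0 for the inhibitory receptor Clec4a2 (0.68), for the signalling genes Prkcd (0.52), Syk (0.46), Fcer1g (0.41) and Ikbkg (0.75), and for Pglyrp1 (0.50), a ligand of Trem1. Of the 14 neutrophil markers, 3 lay above 0 past the threshold (Csf3r, 0.33, Retnlg, 0.29, and Mmp9, 0.28), beside 3.45% of all genes tested. Another 1 lay below (Mpo, -0.60), beside 1.26% of all. The median of genes with at least 10 counts was 0.18 in this difference. For Trem1, Clec4e and Clec7a the unstimulated libraries of the genotypes overlapped and the stimulated ones did not. For Clec4a2 the unstimulated ones did not overlap and the stimulated ones did. Groups of 2 libraries are too small to ask whether 1 library stands apart.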

How the results depend on the processing

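Of 740 values of the members under the alternatives, 667 kept their direction and their side of the threshold, 29 lost a call, 13 gained one and 31 changed sign, none of these 31 in an R848 response. With DESeq2, 0 members had a higher difference of response, 5 of the other receptors were called in the WT response, 1 in each comparison of KO with WT, 0 signalling genes in the difference and 7 in unstimulated KO. Its log2 value was -0.093 for Clec5a in the difference, 0.0043 for unstimulated Trem1 and -0.024 for Card9 after R848. The filterByExpr filter, which tests fewer genes, left 5 other receptors called in each response. Relative log expression factors gave 2 signalling genes in the difference and 13 in KO against WT after R848, and turned Clec5a to -0.078 in the difference and Card9 to -0.022 after R848. Library size alone gave 3 members higher and 7 signalling genes called in the KO response, 2 signalling genes in the difference, and for unstimulated KO against WT 1 member higher, 3 lower, 4 signalling genes and 1 other receptor. After R848 it gave 2 signalling genes and 4 other receptors. It turned Clec7a (0.22), Trem1 (0.22) and Card9 (0.086) positive without stimulation and Clec4a2 (0.20) after R848. Separate fits gave 1 member higher and 9 signalling genes without stimulation, with Clec7a at 0.076 and Trem1 at 0.076. Without the fold limit, 15 signalling genes responded in WT and 18 in KO. The cause of these shifts was not tested. Shares of all genes called were taken in the main fit only. The counts here and in the next paragraph therefore do not tell a change in these genes from one across all genes.

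Leaving out 1 library gave 1 to 2 members called lower in the WT response and 1 to 3 in the KO response, 5 to 8 other receptors in the WT response, 0 to 1 members and 1 to 4 signalling genes higher in the difference, and, without stimulation, 0 to 1 members higher, 9 to 15 signalling genes, 1 to 5 other receptors and 1 to 2 output genes in KO against WT. After R848 it gave 4 to 11 signalling genes and 1 to 2 other receptors. Members whose sign changed ranged, in the difference, from -0.74 to 3.27 for Clec4n, -0.31 to 0.17 for Clec5a, -0.073 to 0.39 for Trem3 and -0.076 to 0.49 for Card9. Without stimulation the ranges were -0.016 to 0.26 for Clec4e, -0.18 to 0.079 for Clec7a, -0.19 to 0.12 for Trem1 and -0.41 to 0.018 for Card9, and after R848 -0.12 to 0.049 for Clec4a2 and -0.13 to 0.13 for Card9.

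Libraries with the same number did not deviate together (r from -0.01 to 0.04 over 2919 genes). Outside stimulated WT the duplicates differed by little more than counting error, so this cannot settle whether the numbers pair the samples. The replicate block changed no call of a member (5 higher and 2 lower in each response, 1 and 3 in the difference, with Trem1 at -1.34). At these depths Clec4n cannot be compared between unstimulated groups.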
